A study of Mus musculus with 6 samples.

Results

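T cells that carry transcripts of Egr1, Nr4a1 and Fosb at once made up 545 of 35294 T cells (1.54%) in the pancreatic lymph nodes of 6 mice. A T cell was a barcode with at least 500 unique molecular identifiers (UMIs, which count captured RNA molecules), 300 genes and at most 10% mitochondrial UMIs, with at least 2 UMIs of Cd3d, Cd3e and Cd3g together and 0 UMIs of Cd79a, a B cell receptor gene, and of Foxp3, the factor of regulatory T cells. Triple-positive cells were selected on their UMIs of the 3 genes, at least 1 of each, and they were set against 21871 triple-negative cells with 0 UMIs of all 3. A further 9950 T cells had 1 of the 3 genes and 2928 had 2. Cells with Cd4 but no Cd8b1 UMIs (CD4 cells) and with Cd8b1 but no Cd4 UMIs (CD8 cells) were described apart, 287 and 83 of the triple-positive and 8044 and 6688 of the triple-negative cells. Of the other triple-positive cells 34 (6.24%) had UMIs of both coreceptors and 141 of neither, against 515 (2.35%) and 6624 triple-negative cells. Neither of those groups was tested.

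Single cells of the nodes, which drain the pancreas, were sequenced as droplet libraries (10x Genomics), and each of the 6 libraries is a separate mouse. Cre-positive mice had a floxed gene together with the CD4-Cre transgene (3 mice), and Cre-negative mice, the controls, had the floxed gene without CD4-Cre (3 mice). CD4-Cre is active in T cells from a thymic stage that expresses Cd4, so it can act in CD4 and CD8 cells alike, and which part of the gene is floxed is not given. All 6 mice carry the floxed allele, and strain, sex and age are not given in the labels used here. The libraries held 8209 to 10936 barcodes, and 56310 of 59680 barcodes were within the limits. No triple-positive barcode was shared between libraries, where 16 to 39 of all barcodes were shared per pair.

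Egr1, Nr4a1 and Fosb are immediate early genes: their transcription starts within minutes of a stimulus and needs no new protein. In T cells the antigen receptor is such a stimulus. Calcium and MAP kinase signals act on serum response factor and related proteins at Egr1 and Fosb, and Nr4a1 (the nuclear receptor Nur77) is widely used as a reporter of receptor signals. The proteins then act as transcription factors on a later set of genes, which includes Egr2, Egr3, surface receptors such as Tnfrsf9 and inhibitors of the signal. The same genes also respond to growth factors, stress and the handling of tissue. No record of the time between dissection and lysis was used here.

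In mm10, Nr4a1 (ENSMUSG00000023034) is at chr15:101254269-101274795 on the plus strand and Fosb (ENSMUSG00000003545) at chr7:19302696-19310051 on the minus strand. The windows printed here run from 250 bases before to 50 bases after a start in RefSeq (build GRCm38.p6), 5′ to 3′ on the gene's strand. They are shown because 2 of the genes that define the cells and 2 of the early genes that rose in them have a motif there of the factors that act at such genes. Capitals mark matches of GCGNGGGCG, the letters bound by the Egr family, or of the CArG box bound by serum response factor, each searched on both strands.
Nr4a1, chr15:101266596-101266895, plus strand: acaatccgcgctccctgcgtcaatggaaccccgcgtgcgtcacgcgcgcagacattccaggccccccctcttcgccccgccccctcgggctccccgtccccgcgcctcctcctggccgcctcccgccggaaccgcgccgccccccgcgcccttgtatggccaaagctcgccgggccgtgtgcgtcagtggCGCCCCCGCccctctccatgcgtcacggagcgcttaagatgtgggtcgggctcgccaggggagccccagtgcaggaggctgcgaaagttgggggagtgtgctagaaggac
Fosb, chr7:19309996-19310295, minus strand: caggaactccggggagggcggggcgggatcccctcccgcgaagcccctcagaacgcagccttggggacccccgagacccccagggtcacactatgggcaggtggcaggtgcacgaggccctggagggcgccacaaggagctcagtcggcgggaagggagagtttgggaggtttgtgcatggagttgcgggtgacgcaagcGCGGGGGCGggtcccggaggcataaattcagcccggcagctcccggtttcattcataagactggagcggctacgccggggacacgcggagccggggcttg
Egr2, chr10:67537619-67537918, plus strand: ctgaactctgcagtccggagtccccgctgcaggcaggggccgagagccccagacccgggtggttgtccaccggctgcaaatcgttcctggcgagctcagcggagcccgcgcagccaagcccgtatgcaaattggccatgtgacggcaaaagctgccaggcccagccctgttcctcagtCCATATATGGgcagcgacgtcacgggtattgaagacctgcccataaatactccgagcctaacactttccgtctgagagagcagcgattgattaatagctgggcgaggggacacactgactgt
Zfp36, chr7:28379179-28379478, minus strand: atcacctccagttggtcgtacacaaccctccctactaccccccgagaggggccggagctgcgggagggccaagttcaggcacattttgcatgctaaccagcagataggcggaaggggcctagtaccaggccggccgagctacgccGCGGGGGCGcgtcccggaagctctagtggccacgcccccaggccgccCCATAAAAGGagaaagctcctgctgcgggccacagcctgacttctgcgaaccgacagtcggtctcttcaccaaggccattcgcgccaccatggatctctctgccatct
The Egr letters begin 60 bases before the start of Nr4a1, 50 bases before that of Fosb and 105 bases before that of Zfp36, which also has a CArG box 58 bases before it. The CArG box of Egr2 begins 72 bases before this start. Among all 27025 genes with a window 6.27% held the Egr letters and 1.81% a CArG box. Among the genes tested in CD4 cells these shares were 12.6% and 1.47%, among those that rose in triple-positive CD4 cells by 1.5-fold or more 13.8% and 2.93%, and among those that fell as far 13.2% and 1.23%. A match describes letters in the window and not a bound site. The patterns TGACGTCA, TGANTCA and AAAGGTCA were also searched on both strands, no pattern contains another, and none of these 3 matched in the windows of Nr4a1 and Fosb. Nor did these windows of Nr4a1 and Fosb hold a CArG box. The windows of Fos, Junb and Nr4a3 and that of another Egr2 start, not printed here, held neither the Egr letters nor a CArG box.

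Egr1 (ENSMUSG00000038418), the remaining gene of the gate, lies at chr18:34859823-34864984 on the plus strand of mm10. The 3 transcripts met in 1 cell more often than the product of their shares gives. Egr1 was found in 26.6% of T cells, Nr4a1 in 13.6% and Fosb in 9.17%, and the product of these shares is 0.332% against 1.54% observed, a ratio of 4.64. Within single mice the ratio lay between 3.08 and 6.30, lowest in Cre-positive 3. Deeper cells have more of every transcript, and the triple-positive cells had a median of 6627 UMIs against 5041 in triple-negative cells, so part of the ratio can come from depth, which was not tested. Each of the 3 genes had a median of 2 UMIs in the triple-positive cells, with up to 85 UMIs of Egr1, 30 of Nr4a1 and 48 of Fosb. At the threshold, 55 of the 545 cells had exactly 1 UMI of each gene and 147 had at least 2 of each. Of the 2928 T cells just outside it, 1712 lacked Fosb, 899 lacked Nr4a1 and 317 lacked Egr1.

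Levels of the 3 genes chose the cells and are given without a test, in CPM, a gene's UMIs relative to all UMIs of a mouse's summed cells, scaled for library composition. In triple-positive CD4 cells Egr1 had 803, 515 and 643 CPM in Cre-positive mice and 679, 718 and 1248 CPM in Cre-negative mice. Nr4a1 had 306, 284 and 284 CPM in Cre-positive mice and 299.9, 315 and 512 CPM in Cre-negative mice. Fosb had 430.0, 305 and 752 CPM in Cre-positive mice and 325, 403 and 554 CPM in Cre-negative mice, and Cre-positive 3 was the highest. Cre-positive 3 also stood apart before any gate on the other genes, where 22.2% of T cells had Fosb and the shares elsewhere were 5.30% to 7.72%. In B cells, gated by their own markers, Fosb was found in 26.8% of cells of this mouse and in 18.6% to 23.5% of the others. In triple-positive CD8 cells Egr1 lay between 188 and 461 CPM, Nr4a1 between 140.4 and 292 CPM and Fosb between 119 and 499 CPM over the 6 mice.

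The name of these cells also rests on Fos, which pairs with Jun proteins in the AP-1 factor, and on Cd69, an early activation receptor that holds cells in the node. Fos had a median of 601 CPM (430.0 to 1549) in triple-positive cells, against 90.6 CPM (77.5 to 119) in triple-negative cells. In CD8 cells it had a median of 402 CPM (184 to 898) in triple-positive cells, against 80.03 CPM (56.6 to 145) in triple-negative cells. The ranges did not overlap in either lineage. Cd69 had a median of 590.5 CPM (433 to 1243) in triple-positive cells, against 337 CPM (280.2 to 393) in triple-negative cells, and in CD8 cells a median of 592 CPM (564 to 894) in triple-positive cells, against 312 CPM (282 to 396) in triple-negative cells. Here too every triple-positive sum was above every triple-negative sum. In single cells both had a median of 4 UMIs, while 78 of the 545 cells had no UMI of Fos and 70 none of Cd69. T cell receptor and coreceptor transcripts were present: of 14 T cell markers outside the gate none was at 0 in triple-positive cells, and their summed level was 5619 to 7255 CPM in triple-positive against 6523 to 6809 CPM in triple-negative CD4 cells, and 4977 to 6869.7 against 5349.8 to 5609 CPM in CD8 cells. Egr1, Nr4a1 and Fosb chose the cells, and the choice was made with earlier results of these data known. The levels above thus describe the label and do not test it.

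A minority of the triple-positive cells carried transcripts of antigen-presenting cells. Cells with at least 3 UMIs of 19 myeloid and dendritic genes, or at least 5 UMIs of Cd74, H2-Aa, H2-Ab1 and H2-Eb1 (class II antigen presentation), numbered 50 of 545 triple-positive cells (9.17%), against 3.62% of cells with 2 of the 3 genes, 2.32% of cells with 1 and 1.89% of triple-negative cells. These 50 cells had a median of 14105 UMIs against 6362 in the other triple-positive cells, and a median of 20 UMIs of T cell receptor genes against 22. Doublet calls were made for 30% of the 50 and for 7.27% of the other 495. Among triple-negative cells they were made for 27.8% of cells with such transcripts and for 5.75% of the others. For CD4 cells without such transcripts the rates were 7.28% in triple-positive and 3.26% in triple-negative cells. For CD8 cells without them the rates were 11.8% and 8.09%. In triple-positive CD4 cells the 20 myeloid and dendritic markers summed to 471 to 3924 CPM, against 195 to 269 CPM in triple-negative cells, with S100a8 and S100a9 at 0, and 17 B cell markers to 2622 to 6281 against 389 to 591 CPM. In CD8 cells the myeloid sums were 102 to 697 against 152 to 241 CPM, with 9 of the 20 genes at 0 in triple-positive cells, Lyz2 among them. Without such cells the CD4 sums were 138 to 177 against 125 to 161 CPM for myeloid and 263 to 379.8 against 323 to 374 CPM for B cell markers. The limits used 19 of these 20 myeloid genes and, of the B cell markers, Cd74, H2-Aa, H2-Ab1 and H2-Eb1. Lower sums without such cells thus follow from the limits and are no separate sign of purity. The gene tests that follow were therefore made both for all cells and for the cells without these transcripts, here the restricted cells, a setting added after the data were seen. Medians, ranges and shares of cells are of all cells unless the restricted cells are named. The part of free RNA, doublets and cell contacts in the 50 cells was not tested.

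Triple-positive cells were a larger share of CD4 than of CD8 cells in each of the 6 mice. The share was 2.10% ± 0.817 of CD4 and 0.854% ± 0.484 of CD8 cells (SD, n = 6, exact two-sided sign-flip permutation p = 0.03125, the smallest that 6 mice can give). This test was added after the counts were seen. With every cell thinned to 2000 UMIs the shares were 0.491% ± 0.191 and 0.149% ± 0.0540, and with at least 2 UMIs of each gene 0.523% ± 0.229 and 0.179% ± 0.123, again higher in CD4 cells of 6 of 6 mice. In B cells, gated by Cd79a, all 3 genes were found in 1.62% of 11088 cells at a median of 4375 UMIs, so the triple is not particular to T cells.

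The share did not separate the genotypes. Of all T cells 1.06%, 1.59% and 2.91% were triple-positive in Cre-positive mice 1 to 3, against 1.79%, 0.950% and 1.10% in Cre-negative mice 1 to 3. The means were 1.85% ± 0.952 and 1.28% ± 0.448 (SD, n = 3 each, exact two-sided permutation p = 0.6, where 3 against 3 cannot go below 0.1), and the groups overlapped. Among CD4 cells the means were 2.39% ± 0.988 and 1.81% ± 0.667 (exact permutation p = 0.5), and among CD8 cells 1.03% ± 0.557 and 0.674% ± 0.422 (exact permutation p = 0.6). Without Cre-positive 3, the mouse with Fosb in the largest share of T cells of these 6, the difference over all T cells was 0.0433 percentage points, against 0.572 with it. With Egr1 and Nr4a1 alone the Cre-positive mean was 6.13% ± 1.65 and the Cre-negative mean 6.75% ± 1.24 (exact permutation p = 0.7), a setting added after the data were seen.

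**Figure D1:**
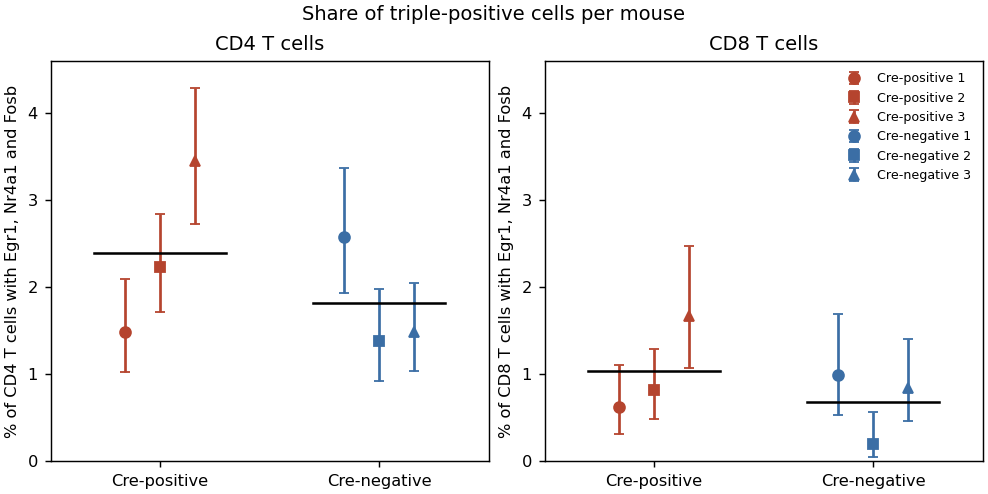
Share of CD4 T cells (left) and CD8 T cells (right) with Egr1, Nr4a1 and Fosb, in percent, by genotype; each point is 1 mouse with its 95% Clopper-Pearson interval, which covers counting error only, and black lines are means of 3 mice. The genotypes overlap in both panels, and the CD4 means of 2.39% and 1.81% stand above the CD8 means of 1.03% and 0.674%.

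In CD4 cells, 26 of 35 genes of a recent antigen receptor signal were higher and 19 of 24 genes of resting naive cells lower in triple-positive than in triple-negative cells of the same mice. Egr2, Egr3, Nr4a3, Gadd45b and Ctla4 stood 4-fold or more above, and S1pr1, Igfbp4 and Dusp10 at less than 50% of their triple-negative level. Summed counts of the 2 kinds of cell were compared within mice, with 28 to 77 triple-positive cells per mouse. Of 9388 genes tested 950 were higher (10.1%) and 727 lower (7.74%) at an adjusted p of at most 0.05. For the restricted cells it was 647 of 9178 (7.05%) and 537 (5.85%), of which 583 and 477 were also called over all cells. Triple-positive CD4 cells were deeper, with a median of 6876 against 4886.5 UMIs. When triple-negative cells were drawn to match them (medians of 6523 and 6531 UMIs, restricted cells), of 6260 genes tested 327 were higher (5.22%) and 238 lower (3.8%), 9.03% together, and 286 and 230 of these were also called over all cells. The medians were close, but on average the matched cells held fewer UMIs per cell in each mouse. The gap was widest in Cre-positive 3, where 73 triple-positive cells held 657290 UMIs and 365 matched cells 2493867 UMIs. Of signs of RNA quality, the nuclear and ribosomal RNA list summed to 31319.8 ± 3599 CPM (27993 to 36005) in triple-positive against 33565 ± 2309 CPM (29547 to 36115) in triple-negative cells, lower in 5 of 6 mice over all cells and in 6 of 6 in the restricted cells. Of its 5 genes tested Kcnq1ot1 rose and Gm42418 and AY036118 fell. The mitochondrial list summed to 44546 ± 3813 CPM (39092 to 48884) in triple-positive against 44046 ± 3153 CPM (38369 to 47476) in triple-negative cells, and 2 of its 13 genes fell. Their part in the results was not tested.

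Antigen signal genes were counted from a list of 40, of which 35 could be tested. In CD4 cells 26 were higher and 0 lower, with a median log2 fold change of 2.05 beside -0.019 for all genes tested. For the restricted cells 27 were higher, with a median of 1.88, and with depth matched as well 24 were higher and 0 lower of 31 tested. Egr2 (chr10:67535475-67542188), a factor that acts after Egr1 and restrains T cells, had a median of 43.9 CPM (33.9 to 124) in triple-positive cells, against 2.67 CPM (1.69 to 3.04) in triple-negative cells (log2 fold change 4.36, SE 0.305, adjusted p = 5.18e-15). Every triple-positive sum was above every triple-negative sum, and it was found in 22.0% of triple-positive against 1.11% of triple-negative cells, or in 11.6% against 0.440% at 2000 UMIs per cell. Its relative Egr3 had a median of 78.5 CPM (35.9 to 123) in triple-positive cells, against 3.17 CPM (2.60 to 5.32) in triple-negative cells (log2 fold change 4.41, SE 0.238, adjusted p = 9.69e-19). Nr4a3, a nuclear receptor related to Nr4a1, had a median of 91.2 CPM (70.03 to 128) in triple-positive cells, against 16.3 CPM (13.4 to 20.03) in triple-negative cells (log2 fold change 2.50, SE 0.164, adjusted p = 6.99e-16). None of these ranges overlapped, and Nr4a2, the remaining member of that family, also rose (log2 fold change 3.10).

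Of the surface proteins encoded in that list, some rose and others, described further on, did not pass. Tnfrsf4 (OX40), which sustains activated CD4 cells, had a median of 139.6 CPM (67.4 to 253) in triple-positive cells, against 28.8 CPM (22.3 to 53.2) in triple-negative cells (log2 fold change 2.14, SE 0.335, adjusted p = 0.00755). A Tnfrsf4 UMI was found in 31.0% of triple-positive against 8.22% of triple-negative cells, in 18.3% against 4.13% at 2000 UMIs per cell, and in 1.56% of B cells at a median of 4375 UMIs. Ctla4, which restrains CD28 costimulation, had a median of 219.8 CPM (143 to 256) in triple-positive cells, against 49.5 CPM (36.8 to 75.5) in triple-negative cells (log2 fold change 2.05, SE 0.157, adjusted p = 7.75e-08). The groups did not overlap for either gene. Log2 fold changes were 2.15 for Tnfrsf9 (4-1BB), 2.51 for the inhibitory receptor gene Pdcd1, 2.47 for Lag3, 1.44 for the costimulator gene Icos, 2.92 for Cd200 and 2.15 for the IL-2 receptor chain gene Il2ra, and all 6 also passed in the restricted cells. Of cytokine genes Tnf had a median of 29.4 CPM (23.7 to 45.5) in triple-positive cells, against 5.67 CPM (4.54 to 9.03) in triple-negative cells (log2 fold change 2.32, adjusted p = 1.02e-08), while Ifng passed at 2.66 with ranges that overlapped. Among the regulators Irf4 stood at 2.06, Bhlhe40 at 2.80, the Ras inhibitor gene Spry1 at 2.42 and Nab2, which binds and represses Egr factors, at 1.30.

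Of the 35 antigen signal genes 9 did not pass over all cells. Myc, which drives growth of activated cells, had a median of 34.4 CPM (26.9 to 52.8) in triple-positive cells, against 35.7 CPM (28.7 to 42.1) in triple-negative cells (log2 fold change 0.10, adjusted p = 0.783). Cd40lg, the signal of CD4 helper cells to B cells, had a median of 84.2 CPM (60.3 to 124) in triple-positive cells, against 84.02 CPM (77.7 to 107) in triple-negative cells (log2 fold change 0.053, adjusted p = 0.836). The ranges of both genes overlapped, and neither passed in the restricted cells (log2 fold changes 0.24 and 0.20). Tox stood at 0.086, the calcium channel gene Orai1 at 0.21 and the amino acid transporter gene Slc7a5 at 0.66, also without passing, as did Cd5, Tagap, Spred1 and Rcan1. Cd5 passed in the restricted cells. At least 1 of 6 antigen signal genes was found in 69.0% of triple-positive against 24.7% of triple-negative CD4 cells, and in 40.1% against 12.2% at 2000 UMIs per cell.

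**Figure D2:**
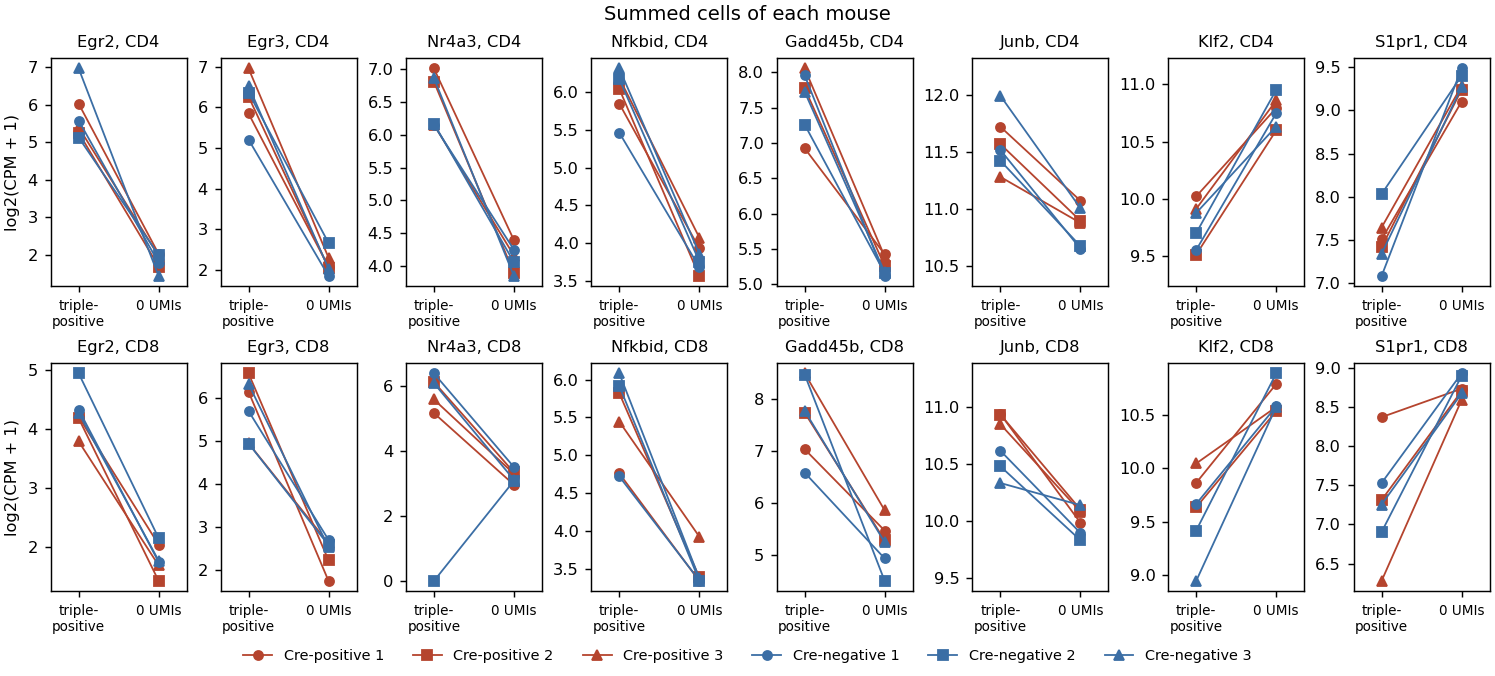
Levels of 8 genes in summed triple-positive (left) and triple-negative (0 UMIs, right) cells of each mouse, as log2(CPM + 1), in CD4 cells (top) and CD8 cells (bottom); lines join the sums of 1 mouse. Egr2 to Junb lie higher and Klf2 and S1pr1 lower in triple-positive CD4 cells of 6 of 6 mice. In CD8 cells Nr4a3 is at 0 in 1 triple-positive sum.

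Other early response genes rose in most but not all cases. Of 10 AP-1 family genes tested 8 were higher and 0 lower in CD4 cells, and in the restricted cells 7 of 9, where Atf3 was under the low-count filter. Junb had a median of 2985 CPM (2489.6 to 4074) in triple-positive cells, against 1895 CPM (1610.0 to 2154) in triple-negative cells (log2 fold change 0.72, SE 0.0674, adjusted p = 2.41e-11), without overlap. Jun stood at 1.25 and Jund at 0.28, and Mafk and Mafg did not pass (-0.13 and 0.14). Of 47 other immediate early genes 28 rose and 6 fell. Gadd45b, which binds stress-activated kinases, had a median of 214 CPM (121 to 265) in triple-positive cells, against 36.2 CPM (33.7 to 41.98) in triple-negative cells (log2 fold change 2.46, SE 0.124, adjusted p = 9.00e-19), and Zfp36, which marks cytokine messages for decay, had a median of 508 CPM (374 to 975) in triple-positive cells, against 100.3 CPM (94.1 to 107) in triple-negative cells (log2 fold change 2.41, SE 0.118, adjusted p = 1.05e-12). Neither gene's groups overlapped. Ier2 stood at 1.17, the phosphatase genes Dusp1 and Dusp2, which switch off MAP kinases, at 1.08 and 1.18, Klf4 at 3.14 and Btg2 at 1.01.

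The 6 genes of this list that fell were Klf2, Dusp10, Cxcr4, Arid5a, Cited2 and Btg1. Klf2, which keeps T cells quiescent and drives S1pr1, had a median of 884 CPM (728 to 1037) in triple-positive cells, against 1746 CPM (1549 to 1980.2) in triple-negative cells (log2 fold change -1.01, SE 0.0737, adjusted p = 2.34e-14). Dusp10, a phosphatase of p38 and JNK kinases, had a median of 204 CPM (174 to 224) in triple-positive cells, against 568 CPM (476 to 606) in triple-negative cells (log2 fold change -1.45, SE 0.0892, adjusted p = 6.47e-17). The groups did not overlap for either gene, so the direction within the Dusp family differed between members. Of 20 NF-kB feedback genes 11 were higher and 0 lower over all cells and 8 in the restricted cells. Nfkbia, the inhibitor that NF-kB induces, had a median of 944 CPM (566 to 1182) in triple-positive cells, against 426 CPM (398 to 441) in triple-negative cells (log2 fold change 1.04, adjusted p = 1.73e-06), and Nfkbid, an atypical inhibitor, stood at 2.28 and Rel, an NF-kB subunit, at 1.31. Tnfaip3 (A20), another feedback inhibitor, did not pass at -0.058, with a median of 384 against 382 CPM in triple-positive against triple-negative cells. Nfkbid and Rel also stand in the antigen signal list.

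Genes of naive and resting T cells were lower in CD4 cells. Of 24 tested 19 fell and 1 (Btla) rose over all cells, with a median log2 fold change of -0.61. In the restricted cells 15 fell and 0 rose, and with depth matched as well 0 were higher and 11 lower of 24 tested. S1pr1 (chr3:115710433-115715072), the receptor by which T cells leave the node, had a median of 176 CPM (135 to 261) in triple-positive cells, against 619 CPM (548 to 716) in triple-negative cells (log2 fold change -1.80, SE 0.101, adjusted p = 4.64e-18). Lef1, a factor of naive cells, had a median of 318 CPM (248 to 396) in triple-positive cells, against 804 CPM (722 to 869) in triple-negative cells (log2 fold change -1.32, SE 0.0939, adjusted p = 2.44e-14). The groups did not overlap for either gene. Ccr7 stood at -0.93, Satb1 at -1.08, Igfbp4 at -1.72, and Tcf7 at -0.34 passed over all cells but not in the restricted cells (adjusted p = 0.134).

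Genes of memory, follicular helper and regulatory cells rose in CD4 cells beside the early genes. Of 20 memory and effector genes 15 rose and 1 (Itgb7) fell over all cells, in the restricted cells 13 rose and 2 fell of 18, and with depth matched as well 7 were higher and 0 lower of 15 tested. Il2rb, the shared IL-2 and IL-15 receptor chain, had a median of 105 CPM (65.9 to 132) in triple-positive cells, against 24.2 CPM (16.9 to 37.8) in triple-negative cells (log2 fold change 2.01, SE 0.138, adjusted p = 3.00e-15). Cd44 had a median of 100.3 CPM (61.1 to 133) in triple-positive cells, against 33.2 CPM (28.6 to 34.8) in triple-negative cells (log2 fold change 1.57, SE 0.140, adjusted p = 6.47e-12). Cxcr3 stood at 2.33, Cxcr6 at 2.99 and Itgb1 at 1.51, while S100a4, S100a6 and Anxa2, also expressed by myeloid cells, stood at 3.05, 2.14 and 2.21 over all cells and at 1.70, 0.97 and 1.48 in the restricted cells. Of 11 follicular helper genes 8 rose and 0 fell (restricted cells 9), led by Tbc1d4 with a median of 289 CPM (190.1 to 355) in triple-positive cells, against 63.99 CPM (53.3 to 97.4) in triple-negative cells and by Pdcd1, Tox2 (1.95) and Cxcr5 (1.90). Of 7 regulatory T cell markers 6 rose (restricted cells 7), although cells with a Foxp3 UMI were left out. Ikzf2 stood at 2.00 and Capg at 2.22. Pdcd1, Tox and Izumo1r of the follicular helper list also stand in the antigen signal list. So do Ikzf2, Il2ra, Ctla4 and Tnfrsf18 of the regulatory markers. A regulatory cell whose Foxp3 was missed passes the gate, and how many such cells are included was not tested.

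Summed markers of other lymphocytes also stood higher in triple-positive CD4 cells. The 12 gamma-delta and innate-like T cell markers summed to 73.1 ± 43.9 CPM (16.3 to 124) in triple-positive against 14.5 ± 4.77 CPM (10.8 to 23.9) in triple-negative cells, and to 76.2 ± 44.5 CPM (17.3 to 135) in triple-positive against 13.3 ± 2.43 CPM (10.9 to 17.8) in triple-negative cells in the restricted cells, higher in 6 of 6 mice in both cases. Trdv4, Sox13, Il17a and Cd163l1 were at 0 in triple-positive cells. Of the 2 genes that could be tested Tcrg-C2, a gamma chain constant gene, rose (log2 fold change 3.26) and Trdc did not pass (0.59, adjusted p = 0.792). The 11 NK and innate lymphoid markers summed to 290.4 ± 132 CPM (137 to 445) in triple-positive against 106 ± 6.36 CPM (97.7 to 116) in triple-negative cells, higher in 6 of 6 mice, and to 121 ± 31.1 CPM (81.01 to 166) in triple-positive against 101 ± 7.18 CPM (90.6 to 112) in triple-negative cells in the restricted cells, higher in 4. Tyrobp, Fcer1g and Klrd1 of this list rose over all cells and Prf1 fell, while the defining NK genes Ncr1, Klre1 and Klra8 were at 0 in triple-positive cells. Tyrobp and Fcer1g were also among the myeloid genes used to leave cells out of the restricted cells. The part of such cells in the memory, helper and regulatory lists was not tested.

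Cell cycle genes were higher over all cells, and less so once depth was matched. In CD4 cells 17 of 17 rose, with a median log2 fold change of 2.11, and likewise 17 in the restricted cells (1.86). With depth matched as well 4 were higher and 0 lower of 16 tested, with a median of 0.86. The proliferation marker Mki67 had a median of 84.7 CPM (0 to 109) in triple-positive cells, against 8.64 CPM (2.61 to 20.8) in triple-negative cells, and 1 triple-positive sum had none, so the ranges overlapped. Pcna, the DNA polymerase clamp, had a median of 48.4 CPM (37.3 to 82.6) in triple-positive cells, against 23.7 CPM (22.6 to 24.7) in triple-negative cells (log2 fold change 1.19, adjusted p = 3.43e-07), without overlap. Cycling cells hold more RNA and so more UMIs. Matching on UMIs cannot tell that part from capture depth, and the matched cells still held fewer UMIs per cell on average.

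Heat shock, interferon and MYC target genes moved in both directions or in few cases, and more of the stress and unfolded protein response genes rose. Of 16 heat shock and dissociation genes 2 rose, among them Hspa5 (0.48), and Cacybp fell, with a median log2 fold change of 0.024. Hspa8, an abundant chaperone gene, had a median of 1676 CPM (1285 to 1969.7) in triple-positive cells, against 1693 CPM (1596 to 1983) in triple-negative cells (log2 fold change -0.089, adjusted p = 0.460), with overlapping ranges. The summed heat shock list reached 9260.0 ± 1279.7 CPM (7939 to 11016) in triple-positive against 8239 ± 489.7 CPM (7697 to 8988) in triple-negative cells, higher in 5 of 6 mice. Of 13 stress and unfolded protein response genes tested 5 rose, namely Atf4 (0.56), Hspa5, Herpud1, Cdkn1a and Pmaip1, and Bbc3 fell, with a median of 0.32. In the restricted cells it was Atf4, Hspa5 and Pmaip1 that rose and Bbc3 that fell, of 11 tested, and with depth matched as well 3 were higher and 1 lower of 10 tested. The 16 genes of that list summed to 1265 ± 129.8 CPM (1036 to 1381) in triple-positive against 821 ± 33.1 CPM (775 to 875) in triple-negative cells, and to 1184 ± 157 CPM (975 to 1392) in triple-positive against 819 ± 33.8 CPM (774 to 876) in triple-negative cells in the restricted cells, without overlap in either case. Of 18 type I interferon response genes Ifi27l2a (0.67) and Samhd1 (0.30) rose and Ly6a (-0.74) and Rtp4 (-1.19) fell. Of 25 MYC and nucleolar genes Odc1 (0.80) and Ncl (0.27) rose and Wdr43 fell. Of 11 glucocorticoid response genes Dusp1 and Fkbp5 rose, and Txnip (-1.34), Pik3ip1 (-1.26) and Tsc22d3 fell. A share of 3 in 16 or 4 in 18 lies near the 17.9% of all genes called in either direction.

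**Figure D3:**
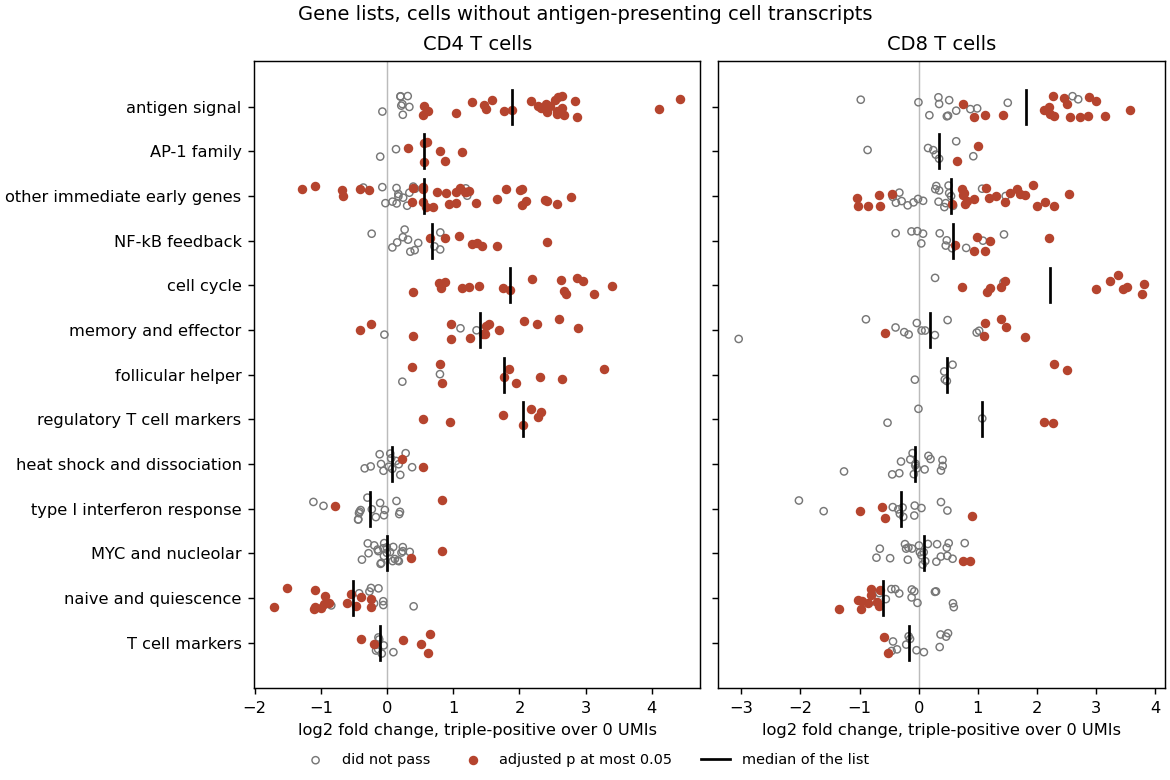
Log2 fold changes of the genes of 13 lists, triple-positive over triple-negative (0 UMIs), in CD4 (left) and CD8 (right) cells without antigen-presenting cell transcripts; each point is 1 gene, filled where the adjusted p is at most 0.05, and black lines are list medians. The antigen signal list has medians of 1.88 in CD4 and 1.82 in CD8 cells, and the heat shock list of 0.069 and -0.055.

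Most of the largest rises over all CD4 cells were of genes too low to test in the restricted cells. Of the 12 risen genes of largest fold change with at least 20 CPM, 11 were Il1b, Atf3, Plbd1, Adam23, Nav1, Wdfy4, Ifitm3, Rnase6, Ly86, H2-DMb1 and Cbfa2t3, and each of these was under the low-count filter in the restricted cells. Il1b, an inflammatory cytokine of myeloid cells, had a median of 62.6 CPM (24.9 to 199.9) in triple-positive cells, against 0.235 CPM (0 to 0.626) in triple-negative cells, and Cd74, the class II invariant chain, had a median of 1273 CPM (1059 to 2314) in triple-positive cells, against 80.2 CPM (54.5 to 132) in triple-negative cells (log2 fold change 4.14). In the restricted cells, from which Cd74 itself was used to leave cells out, it stood at -0.21. Under the same rule the restricted cells gave Egr2, Egr3, Chn2, Rrm2, Spc24, Stx11, Cdk1, Ccnb2, Bcl2a1d, Tnfsf11, Cxcr6 and Ifng. Bcl2a1d, of the A1 survival protein family whose near-identical copies share reads, had a median of 116 CPM (68.9 to 192) in triple-positive cells, against 15.6 CPM (10.9 to 22.8) in triple-negative cells. Tnfsf11 (RANKL), a cytokine that acts on dendritic cells and osteoclasts, had a median of 54.5 CPM (41.3 to 91.6) in triple-positive cells, against 8.71 CPM (7.04 to 14.4) in triple-negative cells (log2 fold change 2.65, SE 0.217, adjusted p = 5.82e-13). The fallen genes of the rule were Cpne4, S1pr1, Igfbp4, Siah1a, Pdlim4, Prf1, Rapgef4, Dusp10, Amigo2, Cd55, Zkscan14 and Txnip.

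**Figure D4:**
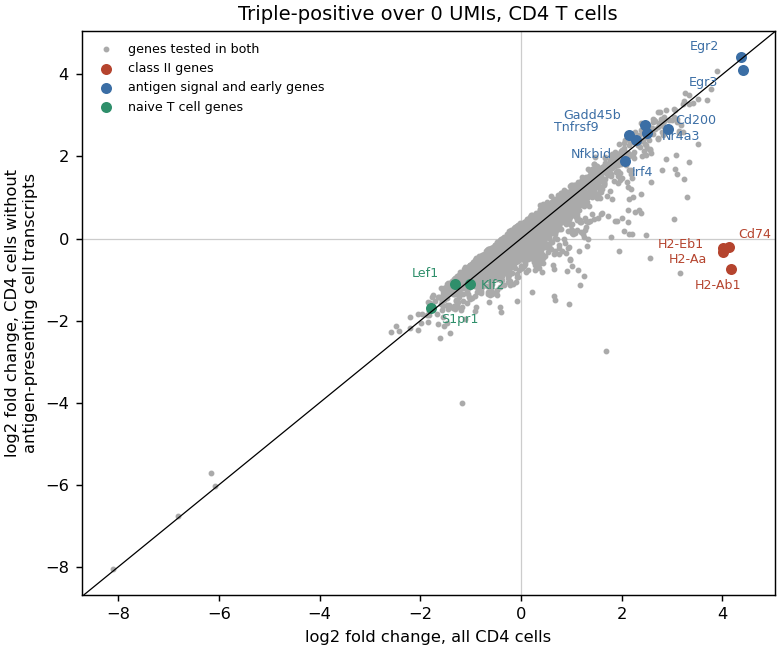
Log2 fold changes, triple-positive over triple-negative (0 UMIs), of each gene tested in CD4 cells, for all CD4 cells (horizontal) and for CD4 cells without antigen-presenting cell transcripts (vertical); the black line marks equal values. Class II genes lie at 4.14 for Cd74 and 4.17 for H2-Ab1 on the horizontal axis and at -0.21 and -0.75 on the vertical axis, while Egr2, Nr4a3 and S1pr1 lie near the line. The marked class II genes were themselves used to leave cells out on the vertical axis.

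In CD8 cells 20 of 32 antigen signal genes were higher and 11 of 24 naive genes lower over all cells. With depth matched in the restricted cells it was 1 of 9 and 1 of 22. Egr3, Nr4a2, Tnfrsf9, Gadd45b and Nfkbid were higher and Ccr9, S1pr1, Klf2 and Lef1 lower in triple-positive cells. There were 83 triple-positive CD8 cells, 3 to 24 per mouse, with a median of 9197 UMIs against 5866. Of 8520 genes tested 265 were higher (3.11%) and 210 lower (2.46%), 5.58% in either direction, and with the alternative scaling (RLE in place of TMM) 336 and 145. For the restricted cells it was 225 (2.65%) and 204 (2.41%) of 8475, 5.06% together. With depth matched as well 48 of 2457 were higher (1.95%) and 25 lower (1.02%), 2.97% together. Of the 265 higher genes 221 (83.4%) were also higher in CD4 cells, which is 23.3% of the 950 called there, and of the 210 lower genes 150 (71.4%, and 20.6% of the 727). The 2 comparisons use different cells of the same mice.

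Of 32 antigen signal genes tested in CD8 cells 20 rose and 0 fell (18 in the restricted cells), with a median log2 fold change of 1.91 beside -0.083 for all genes. Egr3 had a median of 60.1 CPM (29.7 to 93.9) in triple-positive cells, against 4.87 CPM (2.35 to 5.50) in triple-negative cells (log2 fold change 3.82, SE 0.371, adjusted p = 8.22e-22). Nr4a2 had a median of 65.3 CPM (26.1 to 192) in triple-positive cells, against 10.7 CPM (8.78 to 15.2) in triple-negative cells (log2 fold change 2.91, SE 0.298, adjusted p = 1.33e-19). Tnfrsf9, which sustains CD8 cells after priming, had a median of 35.6 CPM (25.5 to 127) in triple-positive cells, against 7.18 CPM (5.50 to 9.54) in triple-negative cells (log2 fold change 2.75, SE 0.367, adjusted p = 1.80e-11), and the lymphocyte factor gene Irf4 had a median of 23.5 CPM (6.34 to 38.4) in triple-positive cells, against 4.56 CPM (3.50 to 5.43) in triple-negative cells (log2 fold change 2.42, SE 0.476, adjusted p = 2.84e-05). No range overlapped for these 4 genes. In the restricted cells those of Irf4 did, with 0 CPM in triple-positive cells of Cre-positive 1, and those of the other 3 did not. Egr2 stood at 2.89, Ctla4 at 2.28, Lag3 at 2.85 and Cd200 at 3.22. Myc had a median of 61.98 CPM (26.1 to 184) in triple-positive cells, against 45.4 CPM (36.5 to 57.5) in triple-negative cells and passed (log2 fold change 0.81, adjusted p = 0.0141), with overlapping ranges.

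Xcl1, a chemokine of CD8 cells that attracts cross-presenting dendritic cells, varied widely between mice. It had a median of 235 CPM (17.4 to 508) in triple-positive cells, against 35.7 CPM (18.8 to 67.8) in triple-negative cells, and at a log2 fold change of 2.85 it did not pass (SE 0.661, adjusted p = 0.0989). A UMI was found in 28.9% of triple-positive against 4.14% of triple-negative CD8 cells, in 16.9% against 1.85% at 2000 UMIs per cell, and in 0.171% of B cells. Only 9 of the antigen signal genes could be tested with depth matched in the restricted cells, and 1 of them was higher. It was Ikzf2, also a regulatory T cell marker, which in the restricted cells was higher in 4 of 6 mice and lower in Cre-negative 2 (29.7 against 37.7 CPM) and Cre-negative 3 (24.5 against 28.7 CPM). The depth-matched CD8 sums hold few cells, and a call lost there was not told apart from a smaller difference.

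Among the other early genes 3 of 9 AP-1 family genes rose in CD8 cells, namely Jun, Junb and Jund, and of 46 other immediate early genes 25 rose and 5 fell. With depth matched in the restricted cells 15 were higher and 0 lower of 28 tested. Gadd45b had a median of 216 CPM (95.1 to 362) in triple-positive cells, against 37.3 CPM (21.6 to 56.99) in triple-negative cells (log2 fold change 2.45, SE 0.195, adjusted p = 4.42e-32), and Zfp36 had a median of 303 CPM (176 to 429.8) in triple-positive cells, against 94.01 CPM (77.6 to 143) in triple-negative cells (log2 fold change 1.60, SE 0.172, adjusted p = 7.73e-18). The ranges of both were apart. Id3, an inhibitor of E proteins that Egr factors induce, stood at 1.36 in CD8 cells and at 0.12, without passing (adjusted p = 0.775), in CD4 cells. Passing in CD8 cells alone is no test of a difference between the lineages. Of 19 NF-kB feedback genes 9 rose and 0 fell, with Nfkbia at 1.24 and Nfkbid at 2.13. Of 16 heat shock genes 0 passed in either direction over all cells, and with depth matched in the restricted cells Hspa5 was higher, 1 of 13. The heat shock list summed to 9334 ± 1145 CPM (8239.8 to 11284) in triple-positive against 8225 ± 652 CPM (7550.0 to 9215) in triple-negative cells, higher in 5 of 6 mice. The stress and unfolded protein response list summed to 1023 ± 178 CPM (864 to 1346) in triple-positive against 715 ± 31.6 CPM (682 to 756) in triple-negative cells, without overlap, and to 972 ± 222 CPM (724 to 1346) in triple-positive against 714 ± 32.7 CPM (682 to 758) in triple-negative cells in the restricted cells, where the ranges overlapped. Of its 11 genes tested Pmaip1 passed over all cells and 0 in the restricted cells.

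Naive genes fell in 11 of 24 cases in CD8 cells and rose in 0. S1pr1 had a median of 155 CPM (76.6 to 330.4) in triple-positive cells, against 421 CPM (384 to 488) in triple-negative cells (log2 fold change -1.39, SE 0.174, adjusted p = 4.79e-13), and Lef1 had a median of 366 CPM (303 to 445) in triple-positive cells, against 739 CPM (653 to 764) in triple-negative cells (log2 fold change -0.99, SE 0.150, adjusted p = 6.09e-09). Ccr9, a homing receptor for the gut and thymus, had a median of 35.6 CPM (25.4 to 76.6) in triple-positive cells, against 133 CPM (99.3 to 144) in triple-negative cells (log2 fold change -1.56, SE 0.247, adjusted p = 4.36e-08). The groups did not overlap for these 3 genes over all cells, and in the restricted cells those of S1pr1 did. With depth matched in the restricted cells 0 were higher and 1 lower of 22 tested, and the remaining call was S1pr1. Markers of CD4 and regulatory T cells also stood higher in triple-positive CD8 cells of 4 of 6 mice. The 4 CD4 T cell markers summed to 239.6 ± 276 CPM (0 to 750.0) in triple-positive against 35.6 ± 5.63 CPM (30.2 to 42.8) in triple-negative cells, and to 165 ± 138 CPM (0 to 318) in triple-positive against 34.8 ± 5.11 CPM (30.5 to 41.4) in triple-negative cells in the restricted cells. Of the 2 that could be tested Izumo1r (2.32) and Tnfrsf4 (3.20) both rose over all cells, where Tnfrsf4 reached 348 CPM in triple-positive cells of Cre-positive 1. They stood in the restricted cells at 2.29 and 2.23, with Izumo1r higher in 4 of 6 mice and Tnfrsf4 in 3 of 6, at 44.99 CPM in Cre-positive 1. The regulatory markers summed to 433 ± 282 CPM (83.7 to 810.0) in triple-positive against 179 ± 7.92 CPM (169 to 189) in triple-negative cells, and Ikzf2 (2.30) and Ctla4 rose of 5 tested. The ranges of both sums overlapped, and the part of other T cells in the CD8 results was not tested. Memory genes rose in 6 of 18 cases, with Cd44 at 1.97, and fell in 2. With depth matched in the restricted cells 0 of them were higher and 0 lower of 12 tested. The memory and effector list summed to 2425 to 5839 CPM in triple-positive against 2485 to 2905 CPM in triple-negative cells. It was higher in 3 of 6 mice over all cells and in 4 of 6 in the restricted cells. Cell cycle genes rose in 12 of 14 cases with a median of 2.08, and in 1 of 8 with depth matched in the restricted cells. Mitochondrial transcripts were lower in 8 of 13 cases, such as mt-Nd2 at -0.54, as were 3 of 5 nuclear or ribosomal RNA transcripts, such as Malat1 at -0.31. These are signs of RNA quality and depth that moved with the group: the mitochondrial list summed to 40655 ± 4776 CPM (33549.5 to 46562) in triple-positive against 46404 ± 3268 CPM (40547 to 50291) in triple-negative cells and the nuclear list to 24771 ± 3855 CPM (20487 to 31059) in triple-positive against 29015 ± 2153 CPM (25837 to 31775) in triple-negative cells, both lower in 6 of 6 mice. With depth matched in the restricted cells 2 and 0 of them were lower.

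For several genes, cells with some but not all of the 3 transcripts stood in between. In restricted CD4 cells with 0, 1, 2 and 3 of the 3 genes, Egr2 averaged 2.40 ± 0.550, 5.93 ± 1.61, 33.00 ± 13.9 and 60.4 ± 30.9 CPM (mean ± SD, n = 6 mice, without scaling for composition). Nr4a3 averaged 15.5 ± 2.61, 33.3 ± 4.34, 64.7 ± 11.7 and 102 ± 28.3 CPM and Junb 1789.9 ± 208, 2376 ± 221, 3191 ± 372 and 3590.3 ± 589.9 CPM. S1pr1 averaged 603 ± 61.3, 493 ± 71.7, 336 ± 44.3 and 205 ± 58.1 CPM and Klf2 1667 ± 149, 1382 ± 112, 1014 ± 108 and 845 ± 115 CPM in the same order. Levels of the 3 rising genes thus went up at each step and those of S1pr1 and Klf2 down at each step, while Hspa8 stayed between 1658 and 1736 CPM and Myc between 33.0 and 43.5 CPM, highest at 2 of the genes. Cd5 too was highest at 2 of the genes, with 141 ± 9.59, 182 ± 18.1, 235 ± 30.8 and 231 ± 69.3 CPM. In CD8 cells Ier2 averaged 212 ± 16.1, 304 ± 28.5, 373 ± 30.9 and 367 ± 63.7 CPM and did not go up at the last step, while Nfkbid averaged 9.19 ± 1.70, 16.3 ± 4.82, 30.4 ± 7.81 and 51.6 ± 22.9 CPM and S1pr1 400.2 ± 45.03, 317 ± 58.6, 219 ± 40.1 and 199.7 ± 131 CPM. The steps are a description without a test, and median depth also rose with them, from 4877 UMIs at 0 of the genes to 5229.5, 5516 and 6523 UMIs at 1, 2 and 3 in restricted CD4 cells.

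**Figure D5:**
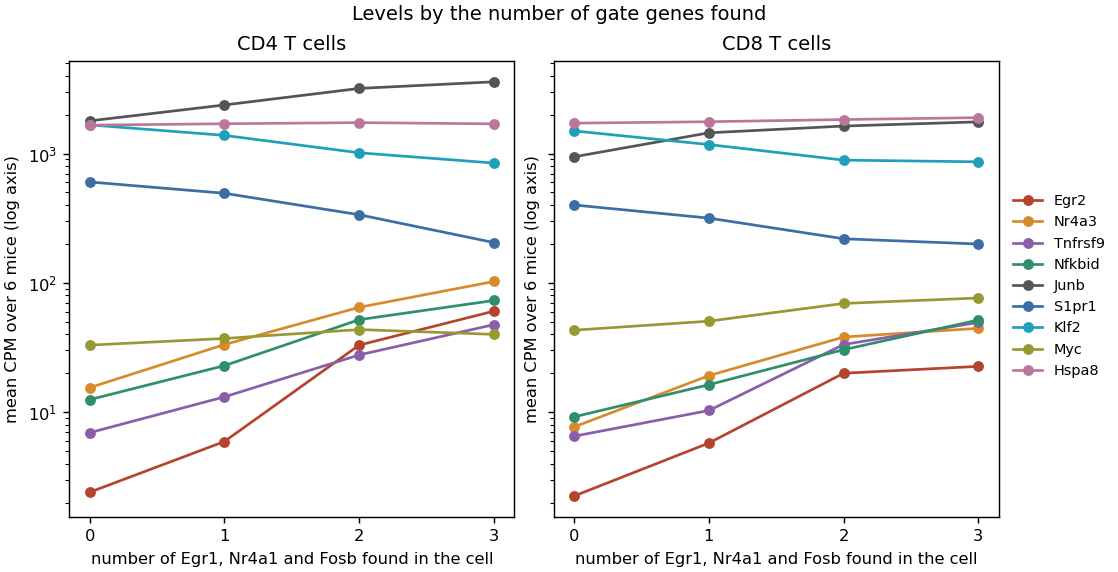
Mean level over 6 mice of 9 genes, in CPM on a log axis, in CD4 (left) and CD8 (right) cells without antigen-presenting cell transcripts, by how many of Egr1, Nr4a1 and Fosb were found in the cell (0 to 3). In CD4 cells Egr2, Nr4a3, Tnfrsf9, Nfkbid and Junb lie higher and S1pr1 and Klf2 lower at each further gene, and Hspa8 is level.

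Few genes were called as different in their response between the lineages. The triple-positive CD8 sums held only 3 to 24 cells per mouse, so differences can be missed. Of 9652 genes tested for the interaction of lineage and status, 42 (0.435%) had a higher signed log2 fold change in CD4 than in CD8 cells and 7 (0.0725%) a lower one, 0.508% together. RLE scaling gave 34 and 11, and the restricted cells 19 (0.202%) and 4 (0.0424%), 0.244% together. Ccr9 went opposite ways, with 23.01 ± 19.6 CPM in triple-positive and 5.600 ± 0.951 CPM in triple-negative CD4 cells and 40.2 ± 18.5 CPM in triple-positive and 128 ± 15.9 CPM in triple-negative CD8 cells (SD, n = 6, log2 difference 3.51, adjusted p = 0.00351). Dusp2 rose in both lineages and more in CD4 cells, with 299.9 ± 32.5 CPM in triple-positive and 133 ± 11.9 CPM in triple-negative CD4 cells and 479 ± 139 CPM in triple-positive and 289.5 ± 32.7 CPM in triple-negative CD8 cells (log2 difference 0.60, adjusted p = 0.00351). With depth matched in the restricted cells 1 gene of 5066 passed (0.0197%). In CD4 cells the 4 CD8 T cell markers summed to 136 ± 49.5 CPM in triple-positive against 84.0 ± 8.16 CPM in triple-negative cells, higher in 5 of 6 mice. For the restricted cells these sums were 99.9 ± 42.4 and 84.0 ± 7.65 CPM, higher in 3 of 6 mice. The part of cells of the other lineage in these differences was not tested. The 8 further genes of the rule, of smallest p with at least 20 CPM, are given among the results for a closer look.

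Between the genotypes few genes differed within the triple-positive cells. In CD4 cells 0 of 4684 genes passed with edgeR and 0 with DESeq2, while 165 and 45 had an unadjusted p under 0.05. Groups of 3 mice did not overlap for 433 genes (9.24%). The 5 genes of smallest p with at least 20 CPM, none of which passed, were S100a6, Lgals1, Gm26532, Dnajc19 and Chst2. S100a6, a calcium-binding protein of memory cells, had 206, 224 and 131 CPM in Cre-positive mice, against 51.7, 75.8 and 78.2 CPM in Cre-negative mice (log2 fold change 1.49, SE 0.263, adjusted p = 0.0728), without overlap. Among the restricted cells 2 of 4014 genes passed (0.0498%), namely S100a6 with 71.8, 56.05 and 115 CPM in Cre-positive mice, against 15.7, 23.4 and 9.84 CPM in Cre-negative mice (log2 fold change 2.39, SE 0.416, adjusted p = 0.0142) and Lgals1 (galectin-1) with 251, 235 and 429 CPM in Cre-positive mice, against 88.8, 164 and 118 CPM in Cre-negative mice (log2 fold change 1.41, SE 0.257, adjusted p = 0.0248). Both were higher in Cre-positive mice, and neither group overlapped the other. Both genes are members of the memory and effector list, whose sums were not computed without them. In restricted triple-positive CD4 cells the list summed to 2803, 2616 and 3134 CPM in Cre-positive against 2011, 2068 and 2439 CPM in Cre-negative mice. Over all cells it summed to 3432, 3700.2 and 3269 CPM in Cre-positive against 2181, 2759 and 2664 CPM in Cre-negative mice. These groups did not overlap either, but the sums count the 2 genes again and are no separate support for them. The share of all genes without overlap was not counted in the restricted cells. The part of memory cell numbers in the 2 genes was not tested. Whether this genotype difference is unlike that of triple-negative cells was tested apart. Over all cells 1 of 10402 genes (0.00961%) passed in CD4 cells. Lgals1 was the 1 gene of 9924 (0.0101%) that passed in the restricted cells (log2 difference 1.05, adjusted p = 0.0202), and S100a6 did not pass (adjusted p = 1.000).

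In triple-positive CD8 cells 2 of 2077 genes passed between the genotypes (0.0963%), and in the restricted cells 0 passed with edgeR at 138 genes of unadjusted p under 0.05. Cst3, a protease inhibitor abundant in dendritic cells, had 241, 717 and 569 CPM in Cre-positive mice, against 124, 143 and 122 CPM in Cre-negative mice (log2 fold change 2.05, SE 0.382, adjusted p = 0.0206). S100a11 had 91.8, 137 and 156 CPM in Cre-positive mice, against 7.75, 0 and 35.9 CPM in Cre-negative mice (log2 fold change 2.65, SE 0.541, adjusted p = 0.0360). B cell markers, which include class II genes, moved with them, at 4409.8, 4024 and 909.7 CPM in Cre-positive and 399, 209 and 275 CPM in Cre-negative triple-positive CD8 cells, and the cells with antigen-presenting cell transcripts numbered 2, 2 and 3 in Cre-positive and 0, 0 and 0 in Cre-negative mice. Without those 7 cells Cst3 had 134, 172 and 185 CPM in Cre-positive mice, against 123, 143 and 121 CPM in Cre-negative mice (log2 fold change 0.43, SE 0.373, adjusted p = 0.965). The difference between genotypes was unlike that in triple-negative CD8 cells for 4 genes of 9317 in the higher (0.0429%) and 1 in the lower direction (0.0107%), 0.0537% together. The CD8 sums rest on 11, 18 and 24 cells in Cre-positive and 13, 3 and 14 cells in Cre-negative mice.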

How the data were processed

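Raw UMI counts per gene and barcode, as deposited by the authors, were used for 6 libraries, 1 per mouse. They were made with Cell Ranger 6.1.2 on mm10, per the submitters' processing notes. Gene positions came from GENCODE M21 by Ensembl identifier (30934 of 31053 features matched) and promoter windows from RefSeq (GRCm38.p6). The floxed gene is not reported here. The libraries held 47149014 to 61321105 UMIs, and intervals cover counting error only.

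The triple-positive cells, gene lists and rules were chosen with earlier results of these data known. UMI counts were summed per mouse, lineage and status, giving 245887 to 719886 UMIs in triple-positive CD4 sums and 23905 to 264935 in CD8 sums. The sums went into edgeR 4.0.16 under R 4.3.3, fitted and tested by quasi-likelihood (TMM factors, filterByExpr, robust dispersions, Benjamini-Hochberg over all genes tested, 0.05), with the mouse as a block for status and lineage. The genes of the gate, Fos and Cd69 were left out of tests. Log2 fold changes are triple-positive over triple-negative and Cre-positive over Cre-negative, and the lineage difference is CD4 minus CD8. Each SE was derived from the fold change and its F statistic. Medians and ranges in parentheses are over 6 mice. Steps and marker sums are CPM without TMM scaling. Cells were read with Python 3.11.15, scipy 1.17.1 and scanpy 1.11.5, whose Scrublet scores marked doublets at an expected rate proportional to the number of barcodes. These were kept, and removed in an alternative. Shares were tested over mice by exact permutation. Cells were thinned to 2000 UMIs where stated, which left out 3 triple-positive and 93 triple-negative CD4 cells and 0 and 23 CD8 cells.

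Named genes were, per lineage, up to 12 risen and 12 fallen genes of largest fold change that passed, moved one way in 6 of 6 mice and reached 20 CPM, without receptor segments, ribosomal, mitochondrial and predicted genes, and members of the lists, of which the text prints a selection. For the lineage difference they were the 10 of smallest p, and for genotype those that passed or the 5 of smallest p. Some genes stand in several lists and count in each, such as Batf, Atf4, Hspa5, Dusp1 and Tnfrsf4. Alternatives were DESeq2 1.42.0, RLE factors, no low-count filter, 5% mitochondrial UMIs, 2000 UMIs per cell, doublets removed, 2 UMIs of each gene, CD4 cells without Cd8a, depth-matched triple-negative cells (up to 5 per triple-positive cell, nearest in UMIs within the mouse), the replicate number as a block, and each mouse left out. Scripts were checked on simulated counts. Deviations of same-numbered mice correlated at -0.014, 0.014 and 0.069 in CD4 and at 0.026, -0.10 and 0.071 in CD8 triple-positive sums. Mice of unlike numbers correlated at -0.15 to 0.12. In sums of so few cells a pairing could be missed, so whether the replicate numbers pair the mice is not settled.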

Additional observations from a re-analysis of the deposited data

Results flagged for a closer look

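The following genes differed between groups by a test of the difference itself. Between the lineages the value is the triple-positive over triple-negative log2 fold change in CD4 minus that in CD8 cells, and levels are mean ± SD over 6 mice (edgeR). Cst7, which encodes cystatin F of cytotoxic cells, differed by 2.23 (adjusted p = 4.11e-06, and 2.29, adjusted p = 2.04e-06, in the restricted cells), with 23.8 ± 6.35 CPM in triple-positive and 6.49 ± 1.52 CPM in triple-negative CD4 cells and 51.1 ± 20.3 CPM in triple-positive and 58.97 ± 2.48 CPM in triple-negative CD8 cells. Klrd1, which encodes CD94, a receptor of NK and CD8 cells, differed by 1.80 (adjusted p = 6.94e-05, and 1.20, adjusted p = 0.239, in the restricted cells), with 24.3 ± 7.68 CPM in triple-positive and 11.1 ± 1.29 CPM in triple-negative CD4 cells and 107 ± 46.7 CPM in triple-positive and 195 ± 9.91 CPM in triple-negative CD8 cells. Ehd1, which acts in endocytic recycling, differed by 2.66 (adjusted p = 7.70e-05, and 1.72, adjusted p = 0.0729, in the restricted cells), with 30.97 ± 14.5 CPM in triple-positive and 7.07 ± 1.73 CPM in triple-negative CD4 cells and 36.8 ± 29.6 CPM in triple-positive and 39.5 ± 2.82 CPM in triple-negative CD8 cells. Art2b, which encodes a surface ADP-ribosyltransferase of T cells, differed by 1.36 (adjusted p = 6.80e-04, and 1.71, adjusted p = 9.20e-05, in the restricted cells), with 96.7 ± 14.8 CPM in triple-positive and 36.98 ± 6.64 CPM in triple-negative CD4 cells and 52.3 ± 28.6 CPM in triple-positive and 60.9 ± 9.98 CPM in triple-negative CD8 cells. Adam19, which encodes a metalloprotease, differed by 1.52 (adjusted p = 0.00238, and 1.53, adjusted p = 0.00172, in the restricted cells), with 56.1 ± 21.4 CPM in triple-positive and 15.01 ± 2.37 CPM in triple-negative CD4 cells and 48.7 ± 16.98 CPM in triple-positive and 44.4 ± 4.36 CPM in triple-negative CD8 cells.

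Itgae, which encodes the integrin CD103, differed by 2.75 (adjusted p = 0.00294, and 2.07, adjusted p = 0.241, in the restricted cells), with 36.2 ± 28.7 CPM in triple-positive and 59.6 ± 6.096 CPM in triple-negative CD8 cells, while in CD4 cells it was under the filter of that lineage's own fit. Ccr9, which encodes a gut homing receptor, differed by 3.51 (adjusted p = 0.00351, and 3.21, adjusted p = 2.97e-05, in the restricted cells), with 23.01 ± 19.6 CPM in triple-positive and 5.600 ± 0.951 CPM in triple-negative CD4 cells and 40.2 ± 18.5 CPM in triple-positive and 128 ± 15.9 CPM in triple-negative CD8 cells. St8sia6, which encodes a sialyltransferase, differed by -2.76 (adjusted p = 0.00351, and -1.76, adjusted p = 0.459, in the restricted cells), with 51.95 ± 13.8 CPM in triple-positive and 70.7 ± 4.24 CPM in triple-negative CD4 cells, while in CD8 cells it was under the filter of that lineage's own fit. Dusp2, which encodes a MAP kinase phosphatase, differed by 0.60 (adjusted p = 0.00351, and 0.65, adjusted p = 1.14e-04, in the restricted cells), with 299.9 ± 32.5 CPM in triple-positive and 133 ± 11.9 CPM in triple-negative CD4 cells and 479 ± 139 CPM in triple-positive and 289.5 ± 32.7 CPM in triple-negative CD8 cells. Slamf6, which encodes a costimulatory receptor, differed by 0.83 (adjusted p = 0.00364, and 0.87, adjusted p = 0.00422, in the restricted cells), with 139 ± 15.4 CPM in triple-positive and 85.6 ± 8.37 CPM in triple-negative CD4 cells and 108 ± 43.9 CPM in triple-positive and 132 ± 5.13 CPM in triple-negative CD8 cells. Klrd1, Ehd1, Itgae and St8sia6 did not pass in the restricted cells, and of all genes 1 passed there with depth matched.

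Between the genotypes the value is the Cre-positive over Cre-negative log2 fold change in triple-positive minus that in triple-negative cells. In CD4 cells Ncoa7, a gene of the response to oxidative stress, differed by -1.39 (adjusted p = 0.0408), with 50.6, 54.7 and 73.8 CPM in Cre-positive mice, against 91.5, 269 and 110.4 CPM in Cre-negative mice in triple-positive cells. Cre-negative 2 was the highest, and in the restricted cells the adjusted p was 0.598. In CD8 cells 5 genes of 9317 (0.0537%) passed and 0 in the restricted cells. H2-Aa differed by 4.05 (adjusted p = 2.43e-11), with 1090.4, 1006 and 214 CPM in Cre-positive mice, against 23.3, 0 and 35.9 CPM in Cre-negative mice. H2-Eb1 differed by 5.41 (adjusted p = 1.48e-09), with 1010.1, 746 and 175 CPM in Cre-positive mice, against 15.5, 0 and 7.18 CPM in Cre-negative mice. Cst3 differed by 1.87 (adjusted p = 4.18e-04) and S100a11 by 2.85 (adjusted p = 0.00262). The mitochondrial chaperone gene Hspd1 differed by -1.35 (adjusted p = 0.0391), with 184, 269.9 and 219 CPM in Cre-positive mice, against 698, 191 and 474 CPM in Cre-negative mice. The 7 triple-positive CD8 cells with antigen-presenting cell transcripts were all from Cre-positive mice.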

How the results depend on the processing

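Over the alternatives, 3323 of 3577 values of the 206 genes named or listed in CD4 cells counted as unchanged. In CD8 cells 2587 of 2950 values of 185 genes did. For the 161 and 114 of these genes that passed in the main fit, unchanged means the same direction and the same side of the threshold. For the others a turned sign also counted as unchanged. Genes under the low-count filter of an alternative have no value there and are not in these totals. The cause of the changes that follow was not tested. The 1677 calls in CD4 cells became 783 with 2 UMIs of each gene, 787 with depth matched, 565 with depth matched in the restricted cells and 1282 to 1637 with 1 mouse left out. The 475 in CD8 cells became 277 with DESeq2, 871 without the low-count filter, 276 with 2 UMIs of each gene (where Cre-negative 2 has no cell), 85 with depth matched, 73 with depth matched in the restricted cells and 245 (without Cre-positive 2) to 538 with 1 mouse left out. Of the 475, 55.8% were higher, of the RLE calls 69.9%, of the DESeq2 calls 71.8% and of the calls with 2 UMIs of each gene 40.2%, and in CD4 cells 56.6% of the 1677 and 46.0% with 2 UMIs of each gene. The 49 lineage differences became 86 without the filter, 25 at 5% mitochondrial UMIs, 30 without doublets, 15 with 2 UMIs of each gene, 2 with depth matched, 23 in the restricted cells, 1 with depth matched there and 27 (without Cre-positive 2) to 48 with 1 mouse left out.

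For genotype in CD4 cells the count of 0 became 13 without the filter, 1 without Cd8a, 2 in the restricted cells, 1 with the replicate number as a block, and 0 to 2 with 1 mouse left out (2 without Cre-positive 3, 1 without Cre-negative 2). In CD8 cells the 2 became 4 with DESeq2, 10 without the filter, 0 without doublets, with 2 UMIs of each gene and in the restricted cells, 7 with the replicate block, and 0 (without Cre-negative 1) to 6 (without Cre-positive 3). For the genotype difference between triple-positive and triple-negative CD4 cells the 1 became 0 with DESeq2 and with depth matched, also in the restricted cells, 2 without the filter, 3 at 5% mitochondrial UMIs, 4 without doublets, 4 with the replicate block and 0 (without Cre-positive 2) to 8 (without Cre-negative 2). In CD8 cells the 5 became 0 with DESeq2, without doublets and in the restricted cells, 11 at 5% mitochondrial UMIs and with depth matched, 8 with 2 UMIs of each gene, 23 with depth matched in the restricted cells, and 5 to 13 (without Cre-negative 2). Since the replicate numbers were not shown to pair the mice, the block is not taken as a better estimate. It gave permutation p of 0.75, 0.75 and 0.5 for the shares of all T, CD4 and CD8 cells. With 1 mouse left out the share differences were 0.0433 to 0.966, 0.0457 to 1.02 and 0.0428 to 0.567 percentage points, each lowest without Cre-positive 3. Some signs turned. In the restricted CD4 cells Cd74 stood at -0.21, H2-Ab1 at -0.75 (-0.43 with depth matched), H2-Eb1 at -0.32 and H2-Aa at -0.23. UMIs of these class II genes decided which cells were left out, so their lower values there follow from that choice. In CD8 cells Jund stood at -0.15 and Dusp2 at -0.033 with 2 UMIs of each gene, Btg1 at 0.024 and Malat1 at 0.15 with depth matched, and in the restricted cells Cst3 at -0.25 (-0.046 with depth matched) and Malat1 at 0.077 with depth matched. H2-Aa, itself used to leave cells out, stood at -0.59 there for the genotype difference between triple-positive and triple-negative cells. Sums of 3 CD8 cells limit what can be seen: a gene at 0 there can be missed by depth.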

Other observations

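Of 14 T cell markers outside the gate 2 rose and 8 fell in CD4 cells, in the restricted cells 4 rose and 2 fell, and with depth matched as well 4 were higher and 0 lower of 14 tested, with a median log2 fold change of 0.0022. Their summed level was higher in triple-positive cells of 1 of 6 mice, and of 3 of 6 in the restricted cells. Among them 3 genes were picked after their values were seen. In the restricted cells Cd5, Cd6 and Zap70 were higher (log2 fold changes 0.62, 0.52 and 0.65, adjusted p = 1.72e-04, 3.19e-04 and 4.75e-05), and the ranges of all 3 overlapped over all cells. Cd5 and Cd6 restrain the receptor signal and Zap70 is its kinase. The receptor chain gene Trac did not pass (-0.14).

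Both Pmaip1 (Noxa) and Bbc3 (Puma), of the stress and unfolded protein response list, encode proteins that promote cell death. Pmaip1 had a median of 44.6 CPM (26.3 to 211) in triple-positive cells, against 8.72 CPM (7.10 to 13.6) in triple-negative cells (log2 fold change 2.59, SE 0.425, adjusted p = 0.00268), and Bbc3 had a median of 24.96 CPM (17.01 to 47.4) in triple-positive cells, against 52.1 CPM (26.1 to 71.5) in triple-negative cells (log2 fold change -1.08, SE 0.188, adjusted p = 2.27e-05). The ranges of Bbc3 overlapped and those of Pmaip1 did not, except in the restricted cells. In the restricted cells the log2 fold changes were 1.38 and -1.27 (adjusted p = 5.94e-04 and 2.65e-06). The pair was picked after its values were seen, and other genes of cell death were not counted.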
